A study of Mus musculus with 16 samples.

Results

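Protocadherins are the largest branch of the cadherin superfamily, and 71 protein-coding genes of the mouse annotation (GENCODE M39) have a symbol that starts with Pcdh, out of 21770 protein-coding genes in all. All 71 were taken, by symbol alone. On chromosome 18, 61 of them lie in or near the alpha, beta and gamma clusters, and the others lie on chromosomes 3, 5, 10, 14 and X. The clusters held 15 alpha, 22 beta and 22 gamma genes, and 12 genes were non-clustered. Pcdha4b is a readthrough gene with no exon of its own, so 70 genes could be followed by their own exons, together with the constant exons of the alpha and of the gamma cluster, each counted once.

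MeRIP-seq pulls down RNA fragments that carry N6-methyladenosine (m6A) with an antibody (IP), and a stretch of transcript where IP reads exceed input reads is called as a peak. The tissue was the peri-infarct cerebral cortex of male C57BL/6J mice aged 6 to 8 weeks. In the MCAO/R groups a nylon thread closed the middle cerebral artery for 2 h, followed by reperfusion for 0 h, 6 h or 24 h, and in the Sham group the same surgery was done without the thread. Each of the 4 groups had 2 IP libraries with 1 deposited peak list each, and the input libraries were not analysed here. Whether the 2 libraries of a group came from separate animals is not stated in the sources used here, so the spread between them may be technical.

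The lists held 18775 to 24078 peaks, 169564 in all, without read counts, which leaves library depth unknown. The paper reports fewer confident peaks per sample than any of these lists holds. How its confident set relates to the lists is not given in the sources used here. A peak is either listed or not, and its score has no stated scale, so it is given here only as a percentile, the percent of the peaks of the same list that score lower. A gene without a peak may lack RNA or may lack a called peak, and these cannot be told apart. Lists of the same group shared 36.1% to 39.1% of their joint regions, and lists of different groups 34.1% to 38.7%. Markers of neurons, astrocytes, oligodendrocytes, microglia and endothelium had peaks for 5 of 8, 4 of 5, 3 of 4, 4 of 5 and 3 of 3 genes, leukocyte markers for 0 of 4, and of 3 liver genes only Ttr had a peak, in 1 list.

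Protocadherins are cell surface proteins with extracellular cadherin repeats that bind like molecules on other cells. In the alpha and gamma clusters, each gene has a large variable exon with its own promoter, which encodes the extracellular part, the membrane span and a short cytoplasmic stretch, and which is spliced to constant exons shared by the whole cluster. Beta genes consist of a single coding exon. Neurons choose different sets of cluster promoters and so acquire a surface identity used in dendrite self-avoidance, while most non-clustered genes, the delta protocadherins, act in axon guidance, synapse remodelling and cell sorting.

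The 8 lists held 1833 protocadherin peaks, which made up 426 of the 52769 regions when same-strand peaks with any exonic base in common were joined. Sham lists held 184 and 225 protocadherin peaks, MCAO/R-0 h lists 225 and 286, MCAO/R-6 h lists 223 and 241, and MCAO/R-24 h lists 206 and 243. The ranges of the groups overlapped. As a share of the list these were 0.980% and 1.12% in Sham, 1.13% and 1.19% in MCAO/R-0 h, 1.00% and 1.04% in MCAO/R-6 h, and 1.08% and 1.09% in MCAO/R-24 h. Both MCAO/R-0 h lists were above the other 6. The lower of them exceeded the highest of the 6, Sham replicate 2, by less than the 2 Sham lists differed.

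Most protocadherin genes carried a peak. Of the 70 genes with their own exons, 67 had a peak in at least 1 list and 52 had a peak in all 8 lists. These are 95.7% and 74.3% of the genes, against 52.7% and 18.6% of the 21699 other protein-coding genes. Per list, 56 and 63 genes had a peak in Sham, 62 and 66 in MCAO/R-0 h, 62 and 64 in MCAO/R-6 h, and 60 and 64 in MCAO/R-24 h. All 14 alpha genes and all 22 gamma genes had a peak somewhere, as did 20 of 22 beta genes and 11 of 12 non-clustered genes. No peak was listed for Pcdhb1, for Pcdhb6 or for Pcdh12, a protocadherin known from vascular endothelium. Pcdhb8 had 1 peak in each of 2 lists and Pcdha1 had 1 peak in each of 3 lists.

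**Figure D1:**
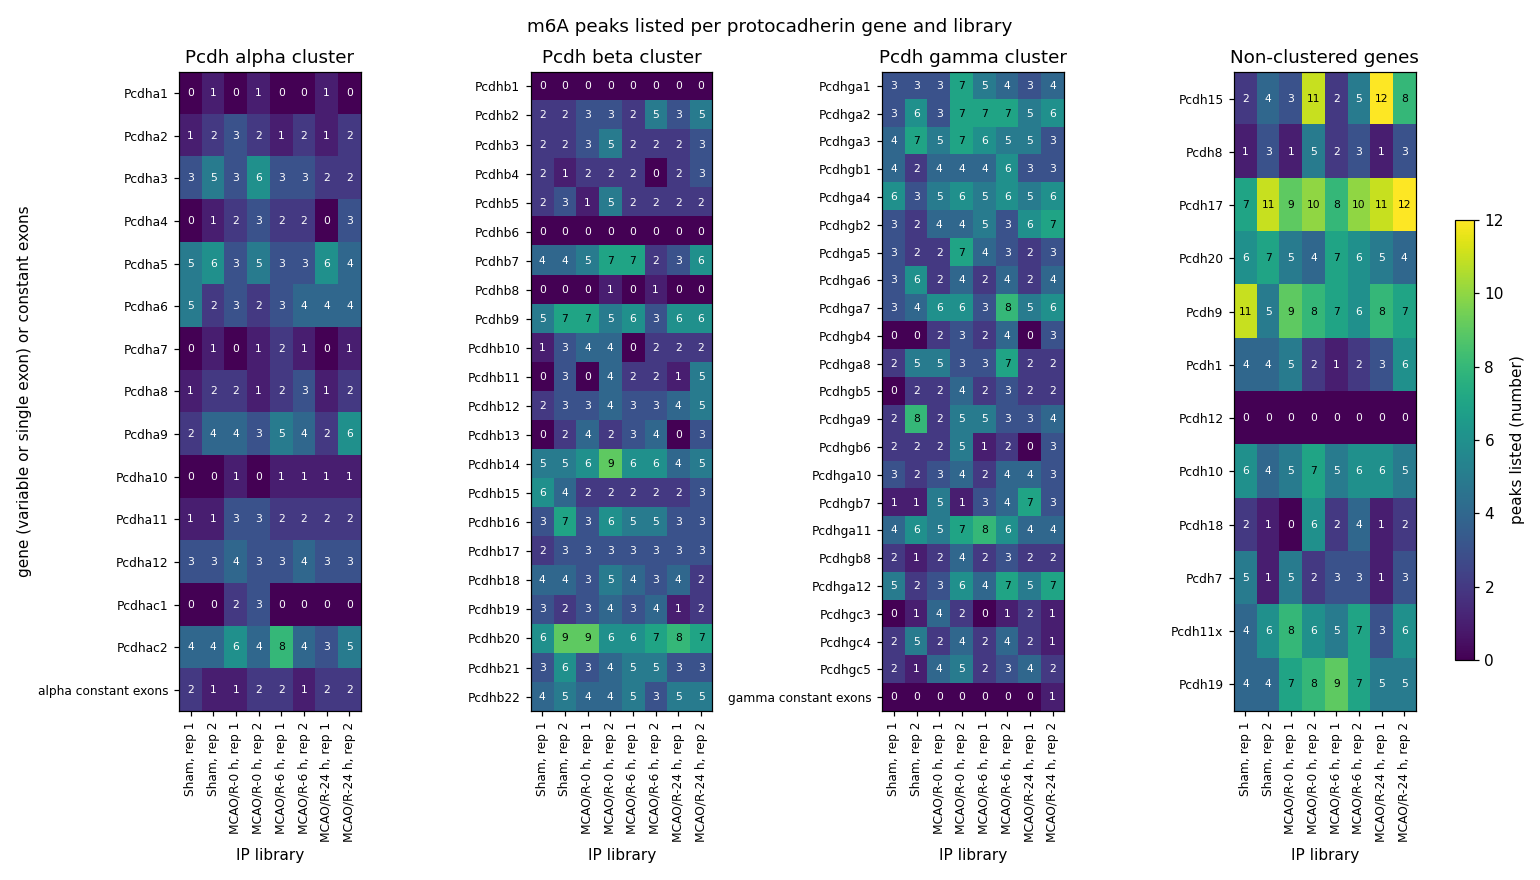
Number of m6A peaks listed (colour and digit) for each protocadherin gene or set of constant exons (rows) in each of the 8 IP libraries (columns), in 4 panels by cluster. Pcdh17 reaches 12 peaks in a list, while Pcdhb1, Pcdhb6 and Pcdh12 stay at 0 in all 8.

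The protocadherin exons held 0.741 ± 0.0963 peaks per kb (SD, n = 8 lists), against 0.236 ± 0.0208 in the exons of the other protein-coding genes. Counting only the other genes that had a peak in the list, the value ranged from 0.472 to 0.526 over the 8 lists. Gamma variable exons had the highest density, 1.22 ± 0.229 per kb, followed by alpha variable exons with 0.874 ± 0.121 and beta exons with 0.732 ± 0.102. Non-clustered genes, whose long 3′ UTRs count in the length, had 0.483 ± 0.0532, which is no higher than the other genes with a peak. The ranges of alpha variable and beta exons over the lists overlapped, from 0.679 to 1.02 and from 0.597 to 0.913 per kb.

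Within the gamma cluster the peaks lay in the variable exons. The 22 gamma variable exons, 59.1 kb in all, had between 51 and 95 peaks per list, and the 3 constant exons, 2.21 kb, had no peak in 7 lists and 1 peak in MCAO/R-24 h replicate 2. The variable exons had the higher density in 8 of 8 lists, by 1.17 ± 0.273 peaks per kb. Only 372 of the 2207 nt of the gamma constant exons are coding, and the rest is 3′ UTR. The comparison is therefore also one of mostly coding against mostly 3′ UTR sequence. Counting coding bases alone, the 372 nt held no peak in any list, since the single constant peak started 1682 nt after the last coding base. So few coding bases would hold few peaks at the variable density, so this does not tell the kind of exon from the kind of sequence. In the alpha cluster the 14 variable exons, 35.3 kb, had 24 to 36 peaks per list and the constant exons, 2.87 kb, had 1 or 2. The density was higher in the variable exons in 7 of 8 lists, by 0.307 ± 0.238 per kb, and in Sham replicate 1 the difference was -0.0185. Among the higher-scoring 50% of each list the mean difference in the alpha cluster turned to -0.0375 per kb, so its direction rests on lower-scoring peaks, while that of the gamma cluster stayed positive at 0.492.

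The alpha constant peaks all lay in the third constant exon, which holds the last coding bases and the shared 3′ UTR. Of the 13, 12 had their middle in the 3′ UTR. They sat at several places, starting between 66 and 1291 nt after the last coding base, at score percentiles from 43.4 to 92.5, and none of their regions was in all 8 lists. The first and second constant exons, 59 and 89 nt long in both clusters, had no peak. Counting only coding bases, the variable exons of the alpha cluster led by 0.599 per kb. The alpha constant exons have only 456 coding nt, however, and just 1 of the 13 peaks, in MCAO/R-0 h replicate 1, touched them. As in the gamma cluster, so few coding bases would hold few peaks at the variable density.

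**Figure D2:**
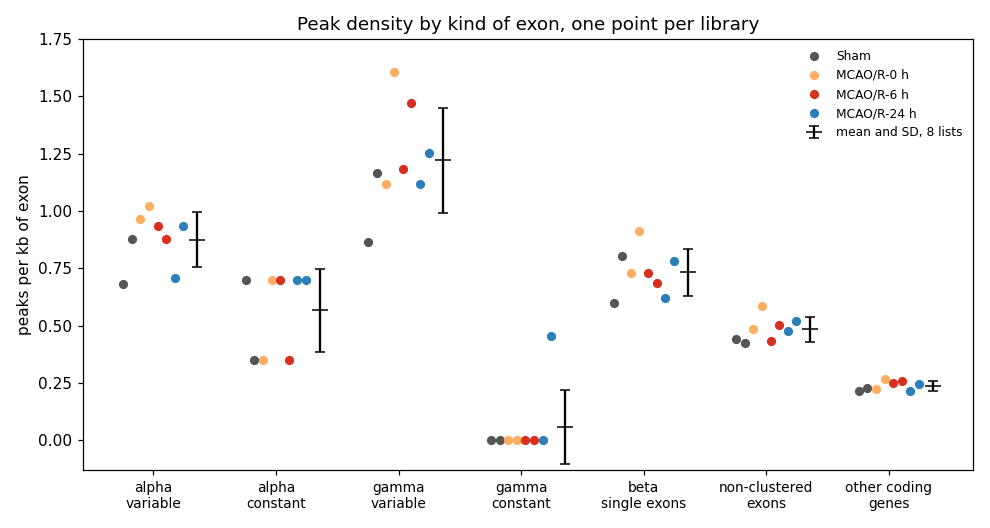
Peaks per kb of exon (vertical axis) for the kinds of protocadherin exon and for other protein-coding genes, with 1 point per library coloured by group and the mean and SD over 8 lists. Gamma variable exons lie between 0.862 and 1.61, and gamma constant exons at 0 in 7 lists.

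Most protocadherin peaks lay in coding sequence and few in the 3′ UTR. By the middle of the peak, 80.1% to 88.0% of them were in the CDS in a list, against 56.1% to 59.9% for the peaks of other protein-coding genes. Only 3.11% to 7.41% were in the 3′ UTR, against 34.6% to 38.3%, and 6.22% to 13.6% were in the 5′ UTR, against 5.04% to 6.18%. The ranges did not overlap in any of these 3 parts, though in the 5′ UTR only narrowly, with 6.22% against 6.18%. Coding bases make up 63.4% of the protocadherin exon length and 46.4% elsewhere, and per kb the CDS held 1.03 ± 0.141 peaks in protocadherins against 0.301 ± 0.0219 in other genes. Per kb of 3′ UTR the values were 0.135 ± 0.0410 and 0.196 ± 0.0212. Per kb of 5′ UTR they were 1.04 ± 0.241 and 0.148 ± 0.0208. By cluster the 5′ UTR had 1.12 ± 0.496 per kb in alpha, 0.924 ± 0.233 in beta and 1.87 ± 0.707 in gamma genes, beside 0.854 ± 0.130, 1.16 ± 0.156 and 1.18 ± 0.234 in the CDS. Over all lists, 56 gamma peaks ran from 1 variable exon into the next, and some, as in Pcdhga1 with Pcdhga2, were placed in the 5′ UTR. Their part in the 5′ UTR values was not tested.

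Beta genes showed this most plainly, since their 3′ UTRs make up 39.0% of their exon length. They had 1.16 ± 0.156 peaks per kb of CDS and 0.0728 ± 0.0443 per kb of 3′ UTR. Peaks with their middle within 200 nt of the stop codon, where m6A is known to be frequent in mRNA, were 7.24% ± 2.72 of the beta peaks and 10.9% ± 4.04 of the non-clustered peaks, against 20.6% ± 0.403 in other protein-coding genes. In the non-clustered genes 12.4% ± 4.42 of the peaks were in the 3′ UTR, which makes up 44.2% of their exon length. Per kb of 3′ UTR they had 0.156 ± 0.0558 peaks, beside 0.622 ± 0.314 in the alpha and 0.168 ± 0.179 in the gamma cluster.

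**Figure D3:**
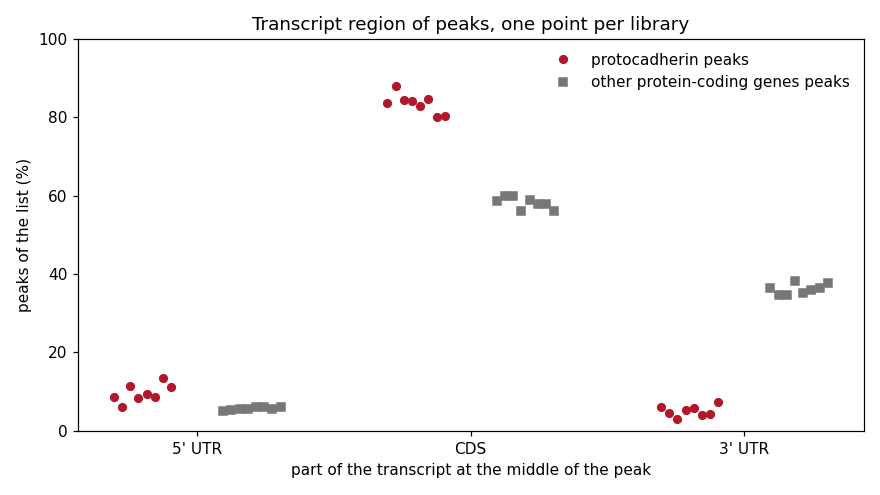
Share of the peaks of a list (vertical axis, percent) by the part of the transcript at the middle of the peak, with 1 point per library for protocadherin peaks (circles) and for peaks of other protein-coding genes (squares). In the CDS the protocadherin points lie at 80.1% to 88.0% and the others at 56.1% to 59.9%.

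Along the coding exon, coverage was uneven, and the 3 clusters differed in where it was high. Coverage is the percent of gene and list pairs with a peak over a position. In the beta genes it was highest 1150 nt after the first coding base, at 51.1%, was 36.4% at 50 nt, and fell to 2.84% at 1950 nt. In the gamma genes it was 39.8% at 950 nt and 36.9% at 350 nt, was 2.84% at 50 nt, and rose again to 35.8% at 2350 nt, near the end of the variable exon. In the alpha genes it was highest at 550 nt, at 36.6%, and was 2.68% at 250 nt. Over the clustered genes, 52.3% to 66.9% of the peak middles of a list lay in the first 50% of the coding exon. Genes of a cluster have similar sequences and are not independent of each other.

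**Figure D4:**
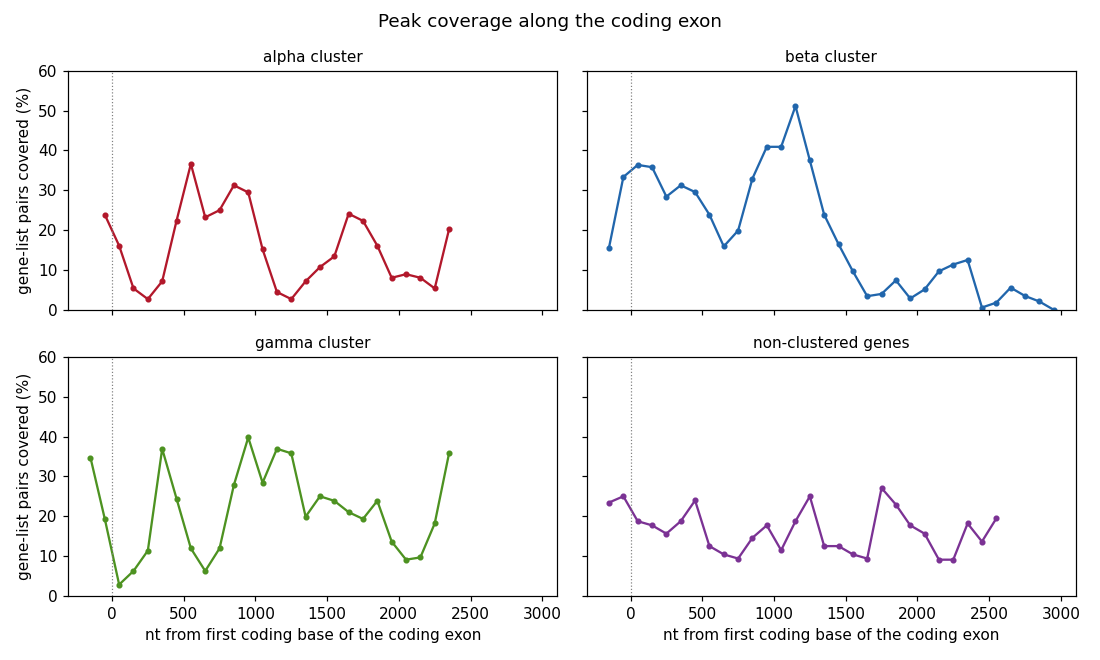
Percent of gene and list pairs covered by a peak (vertical axis) in steps of 100 nt from the first coding base of the coding exon (horizontal axis, nt), in 1 panel per cluster and 1 for the non-clustered genes. Beta genes are highest at 1150 nt with 51.1%, and gamma genes show maxima near 350, 950 and 2350 nt.

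Peaks of neighbouring genes were sometimes joined. In all, 76 peaks had bases in the exons of 2 protocadherin genes, in 17 pairs of genes, and none ran from a variable into a constant exon. Pcdhga2 and Pcdhga3 were joined in 7 peaks, and Pcdhga4 and Pcdhgb2 in 7. Pcdhb21 and Pcdhb22 shared 8 peaks, but their annotated exons overlap, since Pcdhb22 starts at chr18:37650924 and Pcdhb21 ends at chr18:37651378. Such a peak counts for both genes. The authors removed reads that map to several places, which bears on copies within a cluster. Of all words of 50 nt in an alpha variable exon, a median of 14.7% occurred elsewhere in protocadherin exons (0% to 23.4%), against 4.26% in beta exons, 0.730% in gamma exons and 0% in non-clustered genes. Pcdhb1 and Pcdh12, which had no peak, had 0% of such words and Pcdhb6 had 7.69%. Counts of genes with high shares are therefore uncertain.

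Protocadherin regions recurred more often than regions at large. Of the 426, 65 (15.3%) were in all 8 lists and 181 (42.5%) in a single list, against 8.97% and 52.6% of all 52769 regions. The share in all 8 was 20.3% for alpha, 18.6% for beta, 13.3% for gamma and 11.6% for non-clustered genes, and none of the 4 regions of the constant exons. Of the 65, 54 had their middle in the CDS, 7 in the 5′ UTR and 4 in the 3′ UTR. Since overlapping peaks chain together, only 44 of the 65 had a base that was covered in every list. That count is not given over all regions. Chaining is easier where peaks lie denser, as in protocadherin exons, and its part in the difference between 15.3% and 8.97% was not tested. Lists of the same group shared 41.1% to 50.6% of their protocadherin regions, and lists of different groups 38.2% to 51.5%, so replicates were no more alike than other lists.

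**Figure D5:**
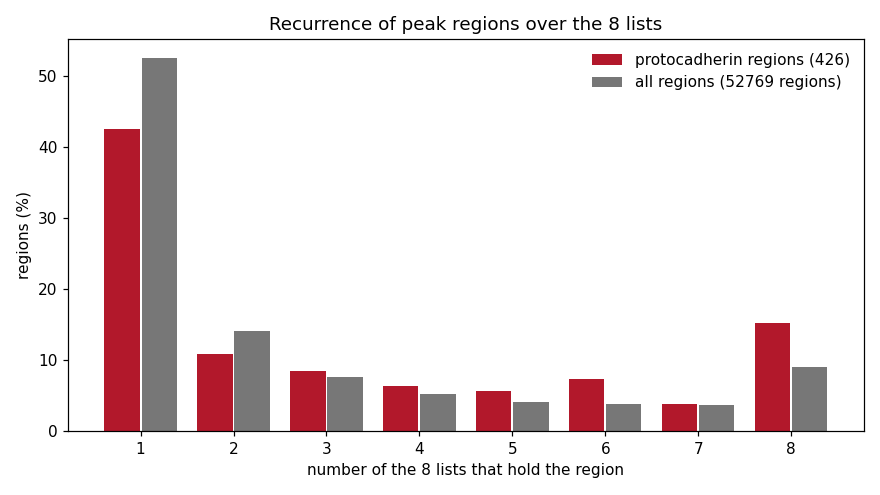
Percent of regions (vertical axis) by the number of the 8 lists that hold them (horizontal axis), for the 426 protocadherin regions and all 52769 regions. In all 8 lists the bars stand at 15.3% and 8.97%.

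The recurrent regions with the highest scores were mainly in non-clustered genes. Of the 15 regions in all 8 lists with a median percentile of at least 90, 9 were in non-clustered genes, 5 in the alpha cluster, 1 in the beta cluster and 0 in the gamma cluster. The stretches below come from recurrent regions of non-clustered genes, in parts covered in every list, and show the letters around an RRACH match. Of the 11 such parts on chromosomes 3, 5 and 14, 6 are shown, and those of 2 regions, in the 5′ UTR of Pcdh17 (median percentile 90.9) and in the CDS of Pcdh9 (91.5), held no match that could be shown with its flanks. RRACH stands for A or G, A or G, A, C, then A, C or T, the pattern in which m6A is known to be placed. The match, GGACT where there was one and otherwise that nearest the centre, is in capitals. Sequences are 5′ to 3′ from GRCm39, and a match is a description, not a site.
Pcdh17, 5′ UTR, chr14:84681307-84681335, plus strand: cacaccgatgctGGACTttgtgaacagag
Pcdh17, 3′ UTR, chr14:84771312-84771340, plus strand: gtatgcagtgtgAGACTtaacgtatttct
Pcdh9, 3′ UTR, chr14:93252650-93252678, minus strand: tcttttgaccctGGACTgctgctatgaac
Pcdh9, CDS, chr14:94126080-94126108, minus strand: gcaatagctcaaGAACTtatttacactat
Pcdh7, CDS, chr5:57879194-57879222, plus strand: aaaagaccatgaGGACTtttttacacccc
Pcdh20, CDS, chr14:88704675-88704703, minus strand: atagaagagaaaGAACCacaaatctcaat

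Matches were denser in peaks. Protocadherin peaks held 17.8 ± 0.255 RRACH matches per kb (SD, n = 8 lists) and the rest of the same exons 13.9 ± 0.166, higher in every list. Peaks of other genes held 18.4 ± 0.166. For GGACT the values were 1.56 ± 0.109 per kb in protocadherin peaks and 0.995 ± 0.0306 in the rest of the exons. When the exons were divided into tiles of 100 nt, RRACH occurred in 72.6% of the 1942 tiles without a peak, 81.5% of the 1025 tiles covered in 1 to 7 lists and 91.9% of the 62 tiles covered in all 8, against 74.7% of the tiles of other protein-coding exons. GGACT occurred in 153, 133 and 14 of these tiles, which is 7.88% of those without a peak and 22.6% of those covered in all 8, against 9.45% elsewhere.

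Among the delta protocadherins, Pcdh17, which acts in synapse assembly and axon extension, had the most listings of any member. It had 7 and 11 peaks in Sham, 9 and 10 in MCAO/R-0 h, 8 and 10 in MCAO/R-6 h and 11 and 12 in MCAO/R-24 h, over 2 ends of the transcript and the coding exons, as the stretches from its 5′ and 3′ UTR above show. Pcdh9 followed with 11 and 5, 9 and 8, 7 and 6, and 8 and 7 peaks in the same order of groups. Its 3′ UTR region, with the GGACT shown above, had a median percentile of 98.7. In both genes the range of each MCAO/R group overlapped or touched that of Sham. Both MCAO/R-24 h lists of Pcdh17 were above those at 0 h and 6 h (exact permutation p = 0.533 among the 4 groups). Both MCAO/R-0 h lists of Pcdh9 were above those at 6 h (exact permutation p = 0.867 among the 4 groups).

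Pcdh19, an X-linked gene in which mutations cause epilepsy with intellectual disability, had 4 and 4 peaks in Sham, 7 and 8 in MCAO/R-0 h, 9 and 7 in MCAO/R-6 h and 5 and 5 in MCAO/R-24 h. Both Sham lists were below all 6 MCAO/R lists. Pcdh10, which recruits the WAVE complex to cell contacts, had between 4 and 7 peaks per list. Pcdh11x had 3 to 8, Pcdh7 1 to 5, Pcdh8 1 to 5 and Pcdh18 0 to 6, and in these 5 genes the range of each MCAO/R group overlapped or touched that of Sham. Pcdh20 had 6 and 7 peaks in Sham, 5 and 4 in MCAO/R-0 h, 7 and 6 in MCAO/R-6 h and 5 and 4 in MCAO/R-24 h, so the MCAO/R-0 h and MCAO/R-24 h lists were below both Sham lists (exact permutation p = 0.105 among the 4 groups). Pcdh1 had 4 and 4 in Sham, 5 and 2 in MCAO/R-0 h, 1 and 2 in MCAO/R-6 h and 3 and 6 in MCAO/R-24 h, and only the MCAO/R-6 h lists were both below Sham (exact permutation p = 0.41 among the 4 groups). The single recurrent region of Pcdh7, in the coding exon, had a median percentile of 96.1. Pcdh15, known as a part of the tip link of inner ear hair cells, varied most. It had 2 and 4 peaks in Sham, 3 and 11 in MCAO/R-0 h, 2 and 5 in MCAO/R-6 h, and 12 and 8 in MCAO/R-24 h. MCAO/R-24 h was the only group in which both lists exceeded both Sham lists (exact permutation p = 0.295 among the 4 groups).

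In the clusters, the genes with the most listings were Pcdhac2, Pcdha5 and Pcdha9 (38, 35 and 30 over the 8 lists), Pcdhb20, Pcdhb14 and Pcdhb9 (58, 46 and 45), and Pcdhga11, Pcdhga2 and Pcdhga3 (44, 44 and 42), with Pcdhga4 tied with Pcdhga3 at 42. All of these had a peak in every list. The C-type genes, which follow the other variable exons of their cluster and are expressed more evenly between neurons than these, behaved unlike each other. Pcdhac1 was listed only in the MCAO/R-0 h lists, with 2 and 3 peaks, and at 0 in the other 6 (exact permutation p = 0.143 among the 4 groups). No peak of the first list shared a base with one of the second, so no region was called gained, and 2.44% of all features tested were listed in both lists of 1 group and in no other list. Pcdhac2 had 3 to 8 peaks in every list. Pcdhgc3 had 0 to 4 peaks and was listed in 6 lists, Pcdhgc4, known for its role in the survival of interneurons, had 1 to 5, and Pcdhgc5 had 1 to 5.

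Peaks per gene were compared among the 4 groups by an exact permutation test over all 105 ways to divide the 8 libraries into pairs, counting in 1 direction only (one-sided, larger differences between groups), for all 14070 genes and protocadherin exon sets with a peak. No feature had an adjusted p under 0.05 (Benjamini-Hochberg, smallest adjusted p = 1, exact permutation), and the smallest p that the design allows is 0.00952. With 14070 features, adjustment could pass a feature only if far more than the 103 features counted below reached that floor together. The adjusted result was therefore nearly fixed by the design and does not show that the groups are alike. A feature with at most 1 peak in every list cannot reach p under 0.05 in this test. The shares that follow therefore depend on peaks per feature, for which protocadherins and other features were not matched. Before adjustment 0.732% of all features, 103, had p under 0.05, and so did 2 of the 69 protocadherin features (2.90%). They were Pcdha11 with 1 and 1 peaks in Sham, 3 and 3 in MCAO/R-0 h, 2 and 2 in MCAO/R-6 h and 2 and 2 in MCAO/R-24 h (exact permutation p = 0.0286), and Pcdh19 with the values above (exact permutation p = 0.0476). Neither passed adjustment, and permuting within replicate numbers (the replicate block) left 0 of them under 0.05. The block allows so few divisions that only a division matched by no other can go under 0.05. It therefore decides nothing about these 2 genes. Peaks on the strand opposite to Pcdha11 were listed too, 1 and 1 in Sham, 2 and 3 in MCAO/R-0 h, 1 and 2 in MCAO/R-6 h and 3 and 2 in MCAO/R-24 h, and their part in the result was not tested.

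Each reperfusion time was then compared with Sham region by region. A region was called gained when it was in both lists of the time and in neither Sham list, and lost in the reverse case. With 2 lists against 2, no test can reach a threshold, so the share of all regions called is the background. At MCAO/R-0 h 15 of 337 protocadherin regions were gained (4.45%, background 3.84%) and 4 were lost (1.19%, background 1.87%). At MCAO/R-6 h 8 of 301 were gained (2.66%, background 4.94%) and 6 lost (1.99%, background 2.03%). At MCAO/R-24 h 13 of 304 were gained (4.28%, background 3.79%) and 10 lost (3.29%, background 2.76%). Each share was within 2 times of its background, in either direction, so they are no result about protocadherins. The 3 comparisons share the Sham lists.

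In all, 40 different regions were called. Only 8 of them had a percentile of at least 50 in both lists that defined the call, and 8 lay within 100 nt of a peak of the other side. Those gained at MCAO/R-0 h were in Pcdh15 (2 regions), Pcdhb3, Pcdhb9, Pcdhb14, Pcdhb18, Pcdhga1 with Pcdhga2, Pcdhga7 with Pcdhgb4, Pcdhgb4, Pcdhgb5, Pcdhgb6 with Pcdhga10, Pcdhgc3, Pcdhgc5, Pcdh10 and Pcdh19. The MCAO/R-0 h losses were in Pcdhb22, Pcdhga5, Pcdhgb6 and Pcdhgb7. At MCAO/R-6 h the gains were in Pcdh15 (2 regions), Pcdha7, Pcdha9 with Pcdha10, Pcdhga1 with Pcdhga2, Pcdhgb8, Pcdhga12 and Pcdhgc5, and the losses in Pcdh15, Pcdh8, Pcdh17, Pcdha5, Pcdhb22 and Pcdhga5. At MCAO/R-24 h the gains were in Pcdh15 (3 regions), Pcdhb4, Pcdhb9, Pcdhb10, Pcdhb14, Pcdhga1 with Pcdhga2, Pcdhga9, Pcdhgb7, Pcdhga12, Pcdhgc5 and Pcdh10, and the losses in Pcdh17, Pcdhac2, Pcdhb15, Pcdhga5, Pcdhga8, Pcdhgb6, Pcdhgb7, Pcdhga11 with Pcdhgb8, Pcdhga12 and Pcdh10.

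Pcdh10 held a called region of high score in each direction. A region in its 5′ UTR, chr3:45333508-45333707, was in neither Sham list, in both MCAO/R-0 h lists at percentiles 88.6 and 66.0, in MCAO/R-6 h replicate 2 at 66.2 and, at MCAO/R-24 h, in both at 83.3 and 76.8. The nearest Sham peak of the gene was 1825 nt away. A second region, chr3:45374084-45374283, in non-coding exonic sequence between coding exons, was in both Sham lists at 81.2 and 80.6, in MCAO/R-0 h replicate 2 at 88.4, in both MCAO/R-6 h lists at 81.6 and 79.3, but was missing from both lists of MCAO/R-24 h.

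Regions in all 6 MCAO/R lists and in neither Sham list numbered 4 of 426 protocadherin regions (0.939%), against 0.26% of all 52769 regions, and 1 region (0.235%) showed the reverse, against 0.371%. A region so gained is in exactly 6 lists, and 7.28% of protocadherin regions were in 6 lists, whichever these were, against 3.80% of all regions. The part of this recurrence in the difference was not tested. The 4 gained regions were 2 in the last exons of Pcdh15, 1 at the start of Pcdhga2 that runs on from Pcdhga1, and 1 in the coding exon of Pcdhgc5. The Pcdhgc5 region had percentiles from 65.4 to 93.1, and its nearest Sham peak was 225 nt away. Those of Pcdh15 ranged from 9.59 to 71.8 and from 31.7 to 76.8, and 1 of them lay 75 nt from a Sham peak. The region lost in all 6 lists, in Pcdhga5, had percentiles of only 1.00 and 35.9 in the Sham lists.

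Other genes linked to protocadherins were read from 3 chosen lists. Of 35 other members of the cadherin superfamily, 27 had a peak and 18 had a peak in all 8 lists. A gained region was called in 6, 6 and 9 of them and a lost region in 2, 1 and 4 at 0, 6 and 24 h. Of the 11442 protein-coding genes with a peak that are not protocadherins, 9.91%, 12.4% and 9.31% held a gained region and 5.09%, 5.5% and 7.08% a lost region at these times. The chosen genes were not matched to these for their number of peaks, so the counts are set beside these shares as a description. Of 12 genes that act in promoter choice and chromatin of the clusters, 11 had a peak and 4 (Ctcf, Wapl, Nipbl and Setdb1) had a peak in all 8 lists. A region of Rest, the repressor of neuronal genes, was gained at all 3 times, and a region was lost at all 3 times in Setdb1, a histone methyltransferase, and in Stag1, a cohesin subunit. A gain at all 3 times was found in 1.58% and a loss at all 3 times in 1.64% of the protein-coding genes with a peak. Of 12 intracellular partners, 10 had a peak and 2 (Abi2 and Ptk2) in all 8 lists, and 1 called region, gained at MCAO/R-0 h in Fmnl2, was found among them.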

How the data were processed

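The authors trimmed the reads, aligned them to GRCm39 with HISAT2, used SAMtools to drop reads that were unmapped or mapped to several places, and ran exomePeak2 as the peak caller. Trim Galore, HISAT2, SAMtools and the build are named in the submitters' processing notes, without versions. RNA was fragmented to about 200 nt per the labels and about 100 nt per the methods. Whether replicates were pooled for a call is not given in the sources used here. The value in the deposited lists is a score of undefined scale, used only to rank peaks within a list. Each line has 12 columns and 1 block, introns included, so exonic parts were rebuilt from GENCODE M39 exons on the same strand.

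A peak counted for a protocadherin exon with at least 1 shared base. Of 99 protocadherin peaks across introns or gaps between exons, 80 had a rebuilt length that was a multiple of 25 nt. Python 3.11.15, numpy 2.4.6, scipy 1.17.1 and matplotlib 3.10.9 were used. Group differences used the exact permutation test described with the results, and its script and the placing of peaks were tested on simulated data.

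The members and lists were chosen with earlier results of these data known. Genes were named by rule: all non-clustered genes, the constant exons, the C-type genes, the 3 genes with most listings per cluster (ties by symbol), and genes with a called region or an unadjusted p under 0.05. No sequence of chromosome 18 is shown. Alternatives left out each library, kept the higher-scoring 50% of peaks or equal numbers of peaks, changed the overlap, joining, placing, exons, motif and measure, or permuted within replicate numbers.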

Additional observations from a re-analysis of the deposited data

Results flagged for a closer look

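Peaks on the strand opposite to protocadherin exons were not used in any comparison above. They numbered 13 and 13 in the Sham lists, 15 and 17 in MCAO/R-0 h (mean 16), 14 and 20 in MCAO/R-6 h (mean 17) and 17 and 15 in MCAO/R-24 h (mean 16), and each MCAO/R list held more than either Sham list, which is why they are noted. As a share of the list the groups overlapped, with 0.0692% and 0.0645% in Sham and 0.0630% to 0.0891% in the MCAO/R lists. Of the 124 such peaks, over 15 genes, 96 lay over a sense peak of the same list. Pcdhb12 had 3 or 4 of them in every list.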

How the results depend on the processing

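Leaving out a library kept the mean share of the list between 1.06% and 1.09%, the mean number of genes between 61.6 and 63.0, the variable minus constant difference between 0.263 and 0.354 per kb (alpha) and between 1.10 and 1.22 (gamma), the regions in all lists between 61 and 68, the CDS share between 82.9% and 84.0% and the share in the first 50% of the coding exon between 57.5% and 59.6%. Gained and lost regions, which then need 1 list of a group, ranged from 15 to 79 and 4 to 38 at MCAO/R-0 h, 8 to 52 and 5 to 47 at MCAO/R-6 h, 13 to 56 and 10 to 52 at MCAO/R-24 h, and 4 to 8 and 1 to 26 for all MCAO/R lists. Protocadherin features with p under 0.05 (exact permutation) ranged from 1 to 4 and all such features from 159 to 198.

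When only the 50% of peaks with higher scores were kept, fewer peaks remained by construction. The share of the list was 0.992%, the genes 49.3, the differences -0.0375 (alpha, reversed) and 0.492 per kb (gamma), the regions in all lists 27 and the CDS share 77.6%. Gained and lost regions at MCAO/R-6 h were 15 and 1, those gained at MCAO/R-24 h were 8, those lost in all MCAO/R lists 0, and features with p under 0.05 were 0 of the protocadherins and 46 in all. With equal numbers of peaks, the regions lost in all MCAO/R lists were 2 and protocadherin features with p under 0.05 were 1. The coding part alone gave 0.599 per kb for alpha, with only 456 coding nt on the constant side. GGACT gave a ratio of peaks to rest of 1.57 against 1.28 for RRACH. The other causes were not tested.

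With the replicate block, where only a division matched by no other can pass, 0 protocadherin features and 15 features in all had p under 0.05. Feature by feature, the replicate numbers paired the libraries only weakly: the correlation of replicate 1 minus replicate 2 between groups was 0.0171 to 0.0590. In every group, however, replicate 2 held more peaks than replicate 1, in total and in protocadherins. Whether the libraries of a replicate number share a cause of this was not tested. Scored as listed or not, 0 protocadherin features and 0 in all had p under 0.05. That count was fixed in advance, since no pattern of listed and unlisted over pairs of libraries can reach this threshold. As peaks divided by the list's total, 4 protocadherin features and 438 in all had p under 0.05 (exact permutation). No adjusted p was under 0.05 among protocadherins under any alternative, which the smallest possible p made nearly certain. Pcdha11 had p between 0.0190 and 1 and Pcdh19 between 0.0190 and 1 over the alternatives (exact permutation). The upper value is fixed for listed-or-not scoring, since both genes had a peak in all 8 lists and could not differ. Depth is unknown, so an unlisted peak cannot be told from one missed.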

Other observations

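In the alpha cluster, 3 peaks had the same first and last base in all 8 lists. They were 75 nt long and lay near the start of the coding exon of Pcdha5, near its end, and around the start of Pcdha8. Their median percentiles were 98.5, 99.3 and 99.3. In the whole series 33 peaks had the same span in all 8 lists. The stretch near the end of Pcdha5 held 2 RRACH matches, the other two held 0, and none held a word of 50 nt found elsewhere in protocadherin exons. These stretches were singled out after their values were seen.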
